A study of Mus musculus with 6 samples.

Results

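The oocyte NLRP genes followed here, without Nlrp5, were Nlrp2, Nlrp4a, Nlrp4b, Nlrp4c, Nlrp4e, Nlrp4f, Nlrp9a, Nlrp9b, Nlrp9c and Nlrp14. They were chosen by symbol and made up 10 of the 25631 genes in the deposited table. RNA was sequenced from oocytes of 14-month-old ICR mice, which were used as a model of natural ageing. The mice of the aminophylline group (n = 3 libraries) were given 4 mM aminophylline, a theophylline derivative that inhibits phosphodiesterases, in the drinking water for 1 week and then plain water for 3 weeks. The control group (n = 3), which GEO's labels call aged and untreated, came from mice of the same age whose water never held the drug. All mice of both groups were injected with equine chorionic gonadotropin, which stimulates the growth of antral follicles, and the oocytes were taken from large antral follicles by puncture. How many mice and oocytes went into a library, and whether the libraries of a group came from separate mice, is not given in the sources used here, so that the p-values measure the spread between these libraries, which may be technical.

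NLRP proteins carry a pyrin domain, a nucleotide-binding NACHT domain and leucine-rich repeats. Some members, such as NLRP3, assemble inflammasomes in immune cells, whereas another group is transcribed in growing oocytes and stored as maternal messenger RNA and protein for the egg and the early embryo. Nlrp5, also called Mater, is the best known of the oocyte group and belongs to the subcortical maternal complex, a large protein assembly under the egg's surface that is needed for early cleavage. In mice the Nlrp4 and Nlrp9 genes are present in several copies that arose by duplication.

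The map of the genes was read from RefSeq on the mouse build GRCm38.p6. Of the 10 genes, 9 lay on chromosome 7 and only Nlrp4f lay elsewhere, at chr13:65177111-65205716 on the minus strand. Along chromosome 7 the order was Nlrp2 (chr7:5298547-5351035, minus strand), Nlrp4c (chr7:6045161-6105149, plus), Nlrp4b (chr7:10687793-10730168, plus), Nlrp9b (chr7:19991393-20062942, plus), Nlrp4e (chr7:23301192-23362277, plus), Nlrp9c (chr7:26364691-26403700, minus), Nlrp4a (chr7:26435113-26476142, plus), Nlrp9a (chr7:26535023-26574148, plus) and Nlrp14 (chr7:107113455-107198103, plus). Nlrp5 itself lay beside Nlrp4e, at chr7:23385889-23441923. Nlrp9c, Nlrp4a and Nlrp9a were likewise close to each other, so that genes of the Nlrp4 and Nlrp9 groups were interleaved along the chromosome.

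The copies were close in sequence, which bears on every value given for them. The coding sequences of Nlrp4c and Nlrp4e were 93.9% identical, those of Nlrp9a and Nlrp9c 87.7%, and those of Nlrp4a and Nlrp4c 86.6%. Nlrp4b stood further from the other Nlrp4 genes, at 78.5% to 79.4%. Of all windows of 50 bases in the Nlrp4e transcript, 36.9% occurred unchanged in a transcript of another gene, most of them in Gm16443. The share was 11.9% for Nlrp4c, 7.08% for Nlrp4f, 6.54% for Nlrp9a, 6.22% for Nlrp9b, 4.99% for Nlrp9c, 3.11% for Nlrp4a and 0.835% for Nlrp2, and no window of Nlrp4b or Nlrp14 was shared. With windows of 100 bases the share fell to 11.5% for Nlrp4e and lay between 0 and 1.36% for the others. How the authors treated fragments that matched several genes, and the length of the reads, is not given in the sources used here. The values of Nlrp4e, Nlrp4c, Nlrp4f and the Nlrp9 genes are therefore uncertain by the fragments that could belong to a copy. How far each value is affected also depends on the levels of the copies and was not measured. Of the 3566 windows of 50 bases in Nlrp4c, 276 occurred in Nlrp4e, whose mean FPKM was 16.0 against 2.99 for Nlrp4c.

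**Figure D1:**
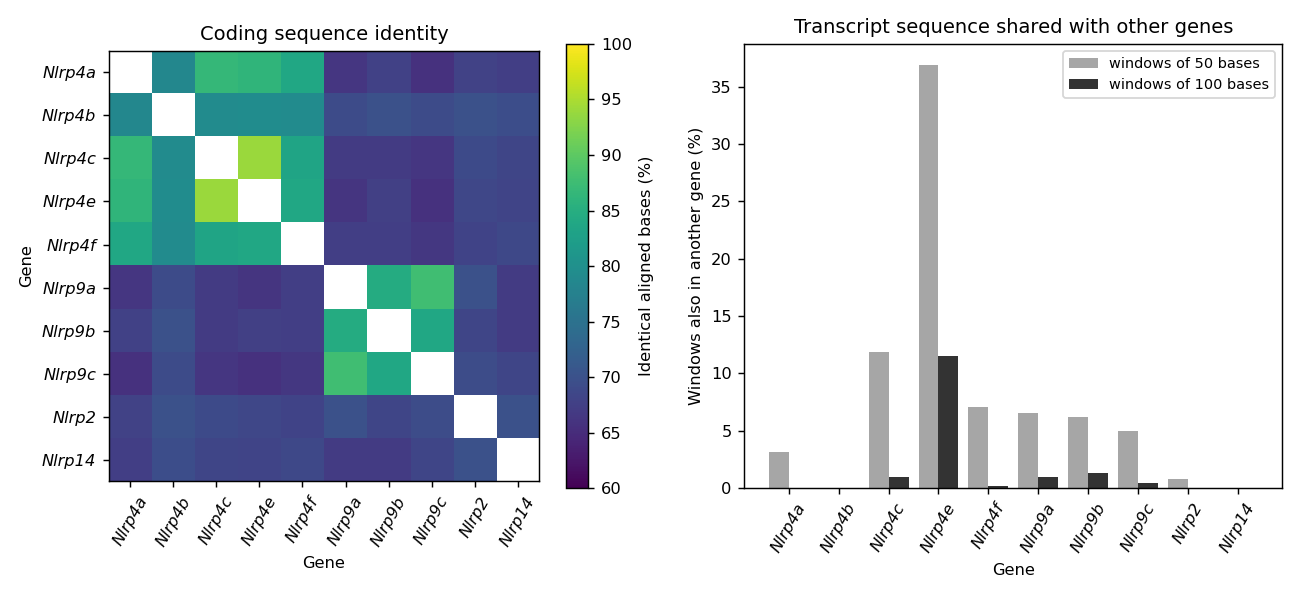
The plot shows, for each NLRP gene, the percentage of its transcript's windows of 50 and of 100 bases that occur unchanged in a transcript of another gene. Nlrp4e stands highest with 36.9% at 50 bases and 11.5% at 100 bases, while Nlrp4b and Nlrp14 are at 0 for both.

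The regions before the starts of some of these genes shared stretches of sequence too. They are shown because the aligned stretches had a motif in common, at differing distances from the annotated starts. Promoters (250 bases before each annotated start) were found in the RefSeq table for 9 of the 10 genes. In the following stretches, given 5′ to 3′ on the gene's own strand, capitals mark the motif CCAAT or its reverse complement ATTGG. The motifs CANNTG (N is any base), TAATTG and TATAAA were searched for in the same promoters too and are not marked. The stretches of each set also had a CANNTG motif in common. The first 2 stretches, of Nlrp9a (chr7:26534913-26535022, plus strand, GRCm38.p6) and Nlrp9c (chr7:26403745-26403854, minus strand), were 99.1% identical over 110 bases.
Nlrp9a: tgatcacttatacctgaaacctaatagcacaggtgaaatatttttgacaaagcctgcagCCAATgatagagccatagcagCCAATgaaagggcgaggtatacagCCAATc
Nlrp9c: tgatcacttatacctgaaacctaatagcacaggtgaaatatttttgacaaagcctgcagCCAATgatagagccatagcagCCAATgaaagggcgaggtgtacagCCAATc
The Nlrp9a stretch ended at the base before the annotated start, and the Nlrp9c stretch ended 45 bases before it. Each held 3 CCAAT motifs.

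A second set came from Nlrp4c (chr7:6045101-6045160, plus strand), Nlrp4b (chr7:10687703-10687756, plus strand) and the second annotated start of Nlrp4a (chr7:26435522-26435581, plus strand). Relative to Nlrp4c, Nlrp4b was 87.0% identical over 54 aligned bases and Nlrp4a 78.3% over 60.
Nlrp4c: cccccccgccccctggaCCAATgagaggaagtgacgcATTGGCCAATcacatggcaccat
Nlrp4b: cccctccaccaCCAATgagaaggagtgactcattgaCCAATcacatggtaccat
Nlrp4a: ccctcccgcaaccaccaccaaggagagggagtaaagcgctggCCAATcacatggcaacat
Nlrp4c thus held 3 CCAAT motifs in this stretch, Nlrp4b held 2 and Nlrp4a held 1. The CCAAT motif next to the letters cacatgg was common to all of them, and cacatg is itself a CANNTG motif. Over all 32851 RefSeq promoters, CCAAT on either strand occurred at least once in 33.8%, at least 2 times in 10.1% and at least 3 times in 2.79%. Since the stretches were chosen for this motif and are copies of each other, these shares are no test of enrichment. The Nlrp4c stretch ended at the base before the annotated start, the Nlrp4b stretch 37 bases and the Nlrp4a stretch 33 bases before it. The promoters of Nlrp2 and Nlrp4e held 1 CCAAT motif each. Those of Nlrp4f, Nlrp9b and the first annotated start of Nlrp4a held 0. CANNTG occurred 0 to 3 times in a promoter of these genes, and at least once in 66.2% of all RefSeq promoters. TAATTG occurred 2 times in the promoter of Nlrp9a, outside the stretch shown, and 1 time in that of Nlrp9b. Over all promoters it occurred at least once in 7.17% and at least 2 times in 0.511%. TATAAA occurred 1 time, in the promoter of Nlrp9b, and at least once in 12.4% of all promoters. These letters are described as they stand in the sequence, and binding was not measured.

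The control libraries held 33641283, 14112341 and 31802417 fragments and the aminophylline libraries 28233049, 24773273 and 30589657, recovered from the deposited FPKM values (fragments per kilobase of transcript scaled to library size). The oocyte markers were present in every library, with summed FPKM between 8205 and 12917 in the control group and between 10195 and 11993 in the aminophylline group. Zp3, a protein of the egg coat, and Gdf9, an oocyte growth factor, were the most abundant of them, and 0 of the 8 passed the test. Granulosa markers summed to 15.7 to 23.3 and to 17.3 to 21.7, with Cyp19a1 (aromatase) and Nr5a2 (a nuclear receptor) the highest and with Amh and Foxl2 at or near 0 in all 6 libraries. Control library 1 stood apart in macrophage markers, whose sum was 241 there against 82.8 to 103 in the other libraries. Of the 11 macrophage markers in the table, 9 were highest in that library, among them Lyz2 (lysozyme). Adgre1 and C1qc were at 0 in the other 5 libraries, whereas C1qb was present in all 6, between 72.3 and 99.8. Theca markers summed to at most 3.85 in any library, stroma markers to at most 1.58, erythrocyte markers to at most 0.585 and endothelial markers to at most 8.89. Control library 2 had the fewest fragments.

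All 10 NLRP genes were expressed above an FPKM of 1 in at least 3 libraries and entered the test, and none of them passed it. Compared with control, 3 of them were higher on average in the aminophylline group and 7 were lower, where 35.2% of all tested genes were lower. Of the 10, 0 had a p-value under 0.05 with limma's moderated test, and 7.25% of all 10340 tested genes had one. The count was also 0 with voom on the recovered fragments, with the unmoderated linear model and without control library 1. It was 2 without control library 2, a setting in which 15.6% of all tested genes passed the same threshold. With limma's p-values adjusted by Benjamini-Hochberg over all tested genes, 0 members and 0 genes in all passed, with adjusted p-values of the members from 0.729 to 0.991. The median difference of the 10 genes was -0.06 on the log2(FPKM + 1) scale, against 0.10 for all tested genes. The 95% intervals of the 10 differences ran from 0.622-fold to 1.86-fold at their widest, and those of 5 genes included a change of 1.5-fold. In whole-oocyte RNA, fewer oocytes of a kind and less RNA per oocyte cannot be told apart.

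**Figure D2:**
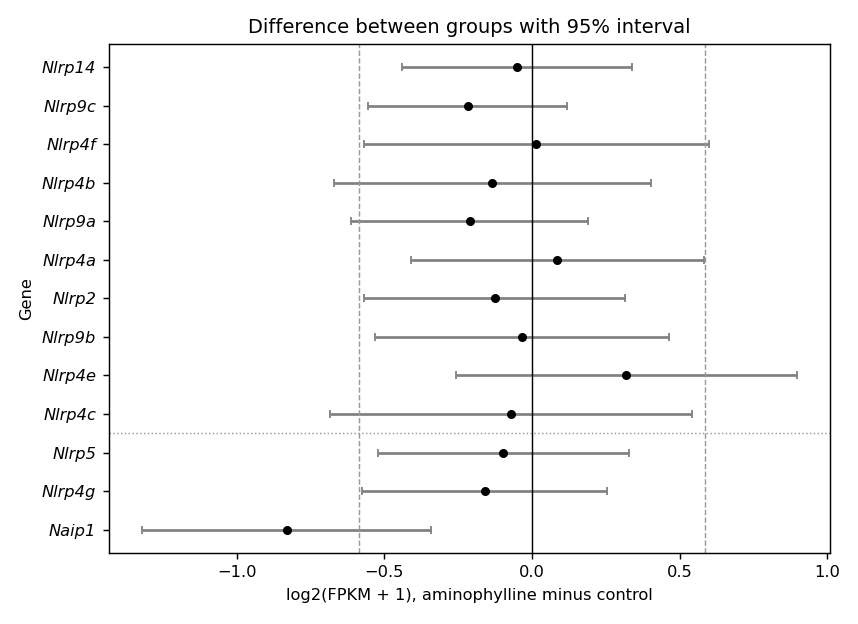
The plot shows the difference of the aminophylline group from the control group in log2(FPKM + 1) for each of the 10 NLRP genes. Points show the estimate of limma's linear model and bars its 95% interval. Nlrp5, Nlrp4g and Naip1 are drawn below a dotted line. The intervals of the 10 genes all include 0, and their estimates lie between -0.22 for Nlrp9c and 0.32 for Nlrp4e. The interval of Naip1, from -1.32 to -0.34, does not include 0.

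Nlrp14 was by far the most abundant of the group. It is expressed in germ cells, and in the mouse egg it has been linked to the stability of Uhrf1, a DNA methylation cofactor, and to calcium handling. Its FPKM in the control libraries 1 to 3 was 561, 539 and 805, and in the aminophylline libraries it was 591, 614 and 604. Control library 3 was the highest and the other 2 control libraries were the lowest of the 6, so that all aminophylline values lay inside the control range. The means were 635 ± 147 (SD, n = 3) in the control and 603 ± 11.4 (SD, n = 3) in the aminophylline group, and the log2 difference was -0.05 with an SE of 0.18 and an adjusted p-value of 0.948 in limma. Nlrp14 ranked 148 of the 10340 tested genes by mean FPKM and made up 41.0% to 48.9% of the summed FPKM of the 10 NLRP genes in a library.

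Nlrp2, which in mice acts from the mother on the early embryo and is found with proteins of the subcortical maternal complex, was expressed about an order of magnitude lower. Its FPKM was 52.3, 45.2 and 75.6 in the controls and 48.6, 54.2 and 51.9 under aminophylline. Control library 3 was again the highest, control library 2 was the lowest, and the groups overlapped. The log2 difference was -0.13 with an SE of 0.20 (adjusted p = 0.874, limma).

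The Nlrp4 group held the genes with the widest spread of levels. Nlrp4f, which has been placed in the subcortical maternal complex, was the highest, with an FPKM of 155.8, 97.0 and 218 in the controls and 121, 158 and 178 under aminophylline. Control libraries 2 and 3 were the lowest and the highest of the 6, and all aminophylline values lay between them. The means were 157 ± 60.5 and 152 ± 28.7 (SD, n = 3 each), with a log2 difference of 0.014, an SE of 0.27 and an adjusted p-value of 0.991 in limma. Nlrp4b had an FPKM of 109.6, 63.1 and 132.6 in the controls and of 78.8, 92.1 and 95.4 under aminophylline. Its aminophylline values too lay inside the control range. Its log2 difference was -0.13 with an SE of 0.24 (adjusted p = 0.892, limma). Without control library 2 the difference of Nlrp4b was -0.44, with an unadjusted p-value of 0.0195 and an adjusted p-value of 0.221 in limma.

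Nlrp4a had an FPKM of 75.3, 49.6 and 89.5 in the controls and of 63.2, 71.9 and 88.2 under aminophylline. The order of the libraries was close to that of Nlrp4f, and the groups overlapped. The log2 difference was 0.09 with an SE of 0.23 (adjusted p = 0.929, limma). Nlrp4e, whose depletion has been reported to stop mouse embryos in early cleavage, had an FPKM of 18.3, 9.0 and 15.7 in the controls and of 13.8, 19.2 and 19.9 under aminophylline. Control library 2 was the lowest and aminophylline libraries 2 and 3 were the highest. Its log2 difference of 0.32 was the largest upward difference of the 10 genes, with an SE of 0.26, a 95% interval from -0.26 to 0.90 and an adjusted p-value of 0.761 in limma. It is also the gene with the largest share of sequence in common with other transcripts.

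Nlrp4c was the lowest of all, with an FPKM of 2.59, 2.14 and 4.59 in the controls and of 1.83, 3.16 and 3.61 under aminophylline. Control library 3 was the highest and aminophylline library 1 the lowest, and the groups overlapped. The log2 difference was -0.07 with an SE of 0.28 (adjusted p = 0.957, limma). Its value in control library 2 rested on the fewest fragments, 109, with a 95% exact Poisson interval of 89.5 to 131 that covers counting error only, since fragments copied by PCR are not independent molecules. The largest number of fragments behind a value was 87530, for Nlrp14.

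The Nlrp9 group, which is expressed in the ovary and of which Nlrp9b has also been described as an RNA sensor of the intestinal epithelium, was lower on average in the aminophylline group for all of its genes, and none passed the test. Nlrp9c had an FPKM of 244, 195.5 and 209 in the controls and of 188, 194.9 and 173 under aminophylline. The lowest control value lay just above the highest aminophylline value, so that the groups did not overlap. Nlrp9c was the only 1 of the 10 genes without overlap, while 12.5% of all tested genes had none, 4.96% in the same direction. The means were 216 ± 25.2 and 185 ± 11.5 (SD, n = 3 each), and the log2 difference was -0.22 with an SE of 0.15, a 95% interval from -0.56 to 0.12, an unadjusted p-value of 0.183 and an adjusted p-value of 0.729 in limma.

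Nlrp9a had an FPKM of 100.3, 67.1 and 96.3 in the controls and of 76.8, 73.3 and 73.9 under aminophylline. Only control library 2 lay below the aminophylline values. The log2 difference was -0.21 with an SE of 0.18 (adjusted p = 0.767, limma). Without control library 2 it was -0.39, with an unadjusted p-value of 0.0177 and an adjusted p-value of 0.210 in limma. Nlrp9b had an FPKM of 50.8, 34.1 and 62.5 in the controls and of 39.2, 51.4 and 49.9 under aminophylline, all of the latter inside the control range. Its log2 difference was -0.04 with an SE of 0.23 (adjusted p = 0.9745, limma).

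**Figure D3:**
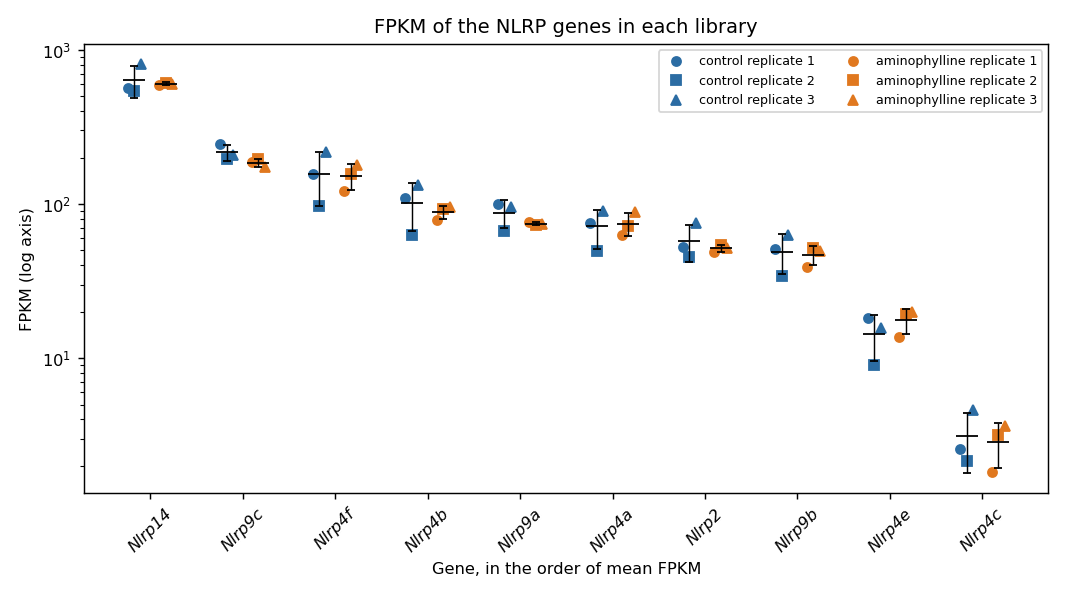
The plot shows the FPKM of each NLRP gene in every library on a log axis, with points for the 3 control and the 3 aminophylline libraries and lines with bars for each group's mean and SD. Nlrp14 lies between 539 and 805 and Nlrp4c between 1.83 and 4.59, and only Nlrp9c has no overlap between the groups.

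FPKM is per length of transcript, so the levels of the genes could be set in order within each library. The order still depends on how fragments shared between copies were assigned, which is not given. Over the 6 libraries the mean FPKM fell from 619 for Nlrp14 to 201 for Nlrp9c, 155 for Nlrp4f, 95.3 for Nlrp4b, 81.3 for Nlrp9a, 73.0 for Nlrp4a, 54.6 for Nlrp2, 48.0 for Nlrp9b, 16.0 for Nlrp4e and 2.99 for Nlrp4c. Of the 9 pairs of neighbours in this order, 6 kept their order in 6 of 6 libraries. For each of these the two-sided exact permutation test of the differences within libraries gave p = 0.03125, the smallest that 6 libraries allow, and an adjusted p-value of 0.0469 over the 9 pairs. Since the neighbours were ranked on the same libraries, these p-values say no more than that the order was the same in 6 of 6. The step from Nlrp14 to Nlrp9c was 1.61 ± 0.26 on the log2(FPKM + 1) scale (SD, n = 6), that from Nlrp9b to Nlrp4e 1.55 ± 0.26 and that from Nlrp4e to Nlrp4c 2.09 ± 0.37.

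Of the other pairs, Nlrp9c was above Nlrp4f in 4 of 6 libraries (exact permutation p = 0.125, adjusted p = 0.141), Nlrp4b was above Nlrp9a in 5 of 6 (exact permutation p = 0.0938, adjusted p = 0.121) and Nlrp9a was above Nlrp4a in 5 of 6 (exact permutation p = 0.156, unchanged by the adjustment). These neighbours did not differ beyond their spread. Ratios between the copies were read within libraries. Nlrp9c was 2.17 to 2.91 times Nlrp9a and Nlrp4f was 1.92 to 2.44 times Nlrp4a, while Nlrp4e was 3.42 to 7.53 times Nlrp4c. These ratios too depend on the assignment of shared fragments.

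Summed over the 10 genes, the FPKM was 1371, 1102 and 1708 in the controls and 1223, 1332 and 1337 under aminophylline. The lowest and the highest sum were both of control libraries. The means were 1394 ± 304 and 1297 ± 64.4 (SD, n = 3 each). The 5 Nlrp4 genes summed to 348 ± 120 in the control and 336 ± 53.5 in the aminophylline group, and the 3 Nlrp9 genes to 353 ± 51.0 and 307 ± 11.8. The ratio of the Nlrp4 to the Nlrp9 sum ranged from 0.744 to 1.30 over the libraries.

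**Figure D4:**
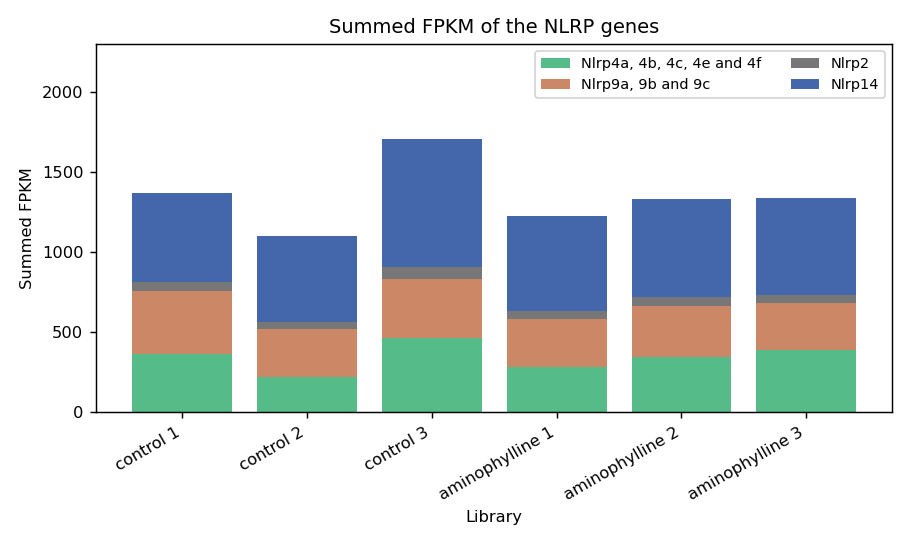
The plot shows the summed FPKM of the 10 NLRP genes in each library as stacked bars, with Nlrp14, the Nlrp9 genes, the Nlrp4 genes and Nlrp2 as the parts. The sums run from 1102 in control library 2 to 1708 in control library 3, and the aminophylline libraries lie between them at 1223 to 1337.

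The libraries of the control group differed more from each other than those of the aminophylline group. The SD was larger in the control group for 10 of the 10 genes, as it was for 70.2% of all tested genes. Control library 3 had the highest value of 7 of the 10 genes, against 24.4% of all tested genes, and control library 2 the lowest value of 8, against 29.0%. For 7 of the genes all aminophylline values lay inside the control range. The share of all tested genes for which this held was not computed, so the count cannot be read as particular to the NLRP genes. As the deviation from each gene's mean over the libraries, the median of the 10 genes was 0.09, -0.38 and 0.40 on the log2(FPKM + 1) scale in control libraries 1 to 3 and -0.17, 0.01 and 0.06 in the aminophylline libraries.

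The deviations of other genes in these libraries differed with the length of their transcripts. The NLRP transcripts used for the FPKM values were 3309 to 4542 bases long. The 2431 tested genes of 3000 to 5000 bases had medians of -0.11, -0.19 and 0.21 in control libraries 1 to 3 and of -0.11, 0.06 and 0.13 in the aminophylline libraries. The 890 genes of this length outside the NLRP genes with a mean FPKM of at least 10 had medians of -0.04, -0.19 and 0.23 in the controls. In the aminophylline libraries theirs were -0.12, 0.02 and 0.09. Those under 1000 bases went the other way in control libraries 2 and 3, with 0.13 and -0.25. All tested genes together had medians of -0.11 in control library 2 and 0.11 in control library 3. The NLRP genes thus had the sign of all tested genes and of other long transcripts in these 2 libraries, with medians further from 0. In control library 1 their median was 0.09, opposite in sign to that of the genes of 3000 to 5000 bases. The part of length in their values was not tested.

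**Figure D5:**
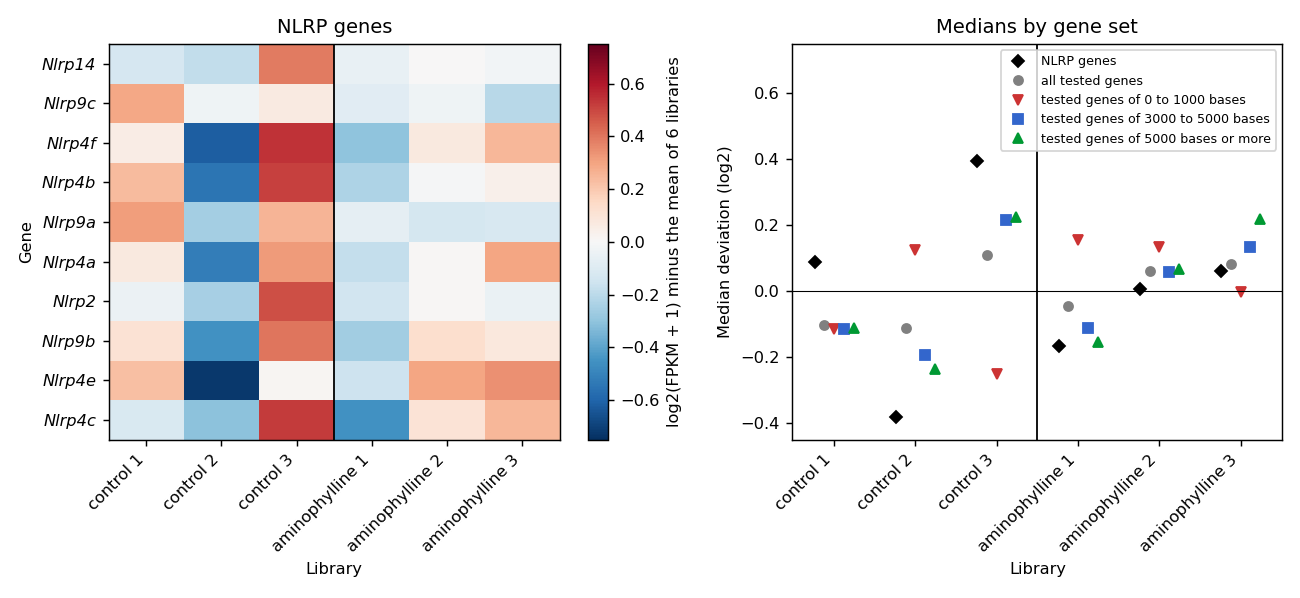
The left panel shows, for each NLRP gene and library, log2(FPKM + 1) minus the gene's mean over the 6 libraries as a colour, and the right panel shows the medians of these deviations for the NLRP genes, all tested genes and tested genes of several transcript lengths. The NLRP genes lie at -0.38 in control library 2 and at 0.40 in control library 3. All tested genes lie there at -0.11 and 0.11, and genes under 1000 bases at 0.13 and -0.25.

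Over the 6 libraries most of the NLRP genes varied together, and Nlrp9c did so the least. Of their 45 pairs, 7 had a Pearson correlation of log2(FPKM + 1) above 0.9 and 1 had one below 0, with a median of 0.76. The highest was 0.98, for Nlrp4f and Nlrp9b, and the lowest was -0.02, for Nlrp4c and Nlrp9c. Nlrp9c had a correlation of 0.78 with Nlrp9a and of at most 0.43 with each of the other genes. The correlations between genes outside the family were not computed. These values describe 6 libraries, and all genes of a library share its depth. The genes whose values followed the mean of the 10 most closely, among 4263 tested genes with a mean FPKM of at least 10, were Togaram1 and Lypla1 (both r = 0.997), Naa11 (r = 0.99), Asnsd1 (r = 0.987) and Tbc1d15 (r = 0.985). Lypla1, a thioesterase, had an FPKM of 23.2, 13.7 and 29.1 in the controls and of 17.4, 21.6 and 21.7 under aminophylline. Like most of the NLRP genes, it was lowest in control library 2 and highest in control library 3. This follows from its choice by that correlation and is no separate result.

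The partners of the family in the subcortical maternal complex also passed no test. Of 6 genes, 0 had a p-value under 0.05 in limma, and their median log2 difference was 0.17 against 0.10 for all tested genes. Nlrp5 had an FPKM of 164, 184 and 273 in the controls and of 191, 185 and 190 under aminophylline (log2 difference -0.10, SE 0.19, adjusted p = 0.904 in limma). Its values in the aminophylline group again lay inside the control range, and Nlrp14 was 2.93 to 3.43 times Nlrp5. Ooep, an RNA-binding KH-domain protein of the complex, was the most abundant partner, with 1823 ± 390 in the control and 2182 ± 235 in the aminophylline group (SD, n = 3 each, adjusted p = 0.728 in limma). Tle6 had means of 626 and 703, Khdc3 (Filia) of 129 and 144, Padi6 of 744 and 733 and Zbed3 of 119 and 136, in control and aminophylline oocytes. For Tle6 and Padi6 the lowest value was that of control library 1 and the highest that of control library 3.

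Of the 2 genes linked to Nlrp14, Uhrf1 had an FPKM of 31.1, 26.0 and 62.1 in the controls and of 40.6, 53.7 and 75.7 under aminophylline, so that the groups overlapped. Its log2 difference was 0.56 with an SE of 0.31 (unadjusted p = 0.102, adjusted p = 0.721 in limma). Slc8b1, the mitochondrial sodium and calcium exchanger, was under 0.03 in every library and was not tested. Among 7 regulators of oocyte transcription, 6 were tested. Figla, which drives the genes of the egg coat, was the only 1 past an unadjusted p-value of 0.05, with 58.6 ± 17.4 in the control and 81.1 ± 4.33 in the aminophylline group (log2 difference 0.50, SE 0.20, unadjusted p = 0.0330, adjusted p = 0.682 in limma), where 4.41% of all tested genes were higher at that threshold. Its groups overlapped. Nobox, another germ-cell regulator, had means of 298 and 299.

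Other genes of the NLR class were mostly silent. Of 19 listed genes, 16 were in the table, and 12 of these stayed under an FPKM of 1 in every library, among them Nlrp3. The other 3 were not analysed here. Of the 4 tested genes, 0 were higher and 1 was lower at an unadjusted p-value under 0.05, a threshold that 2.84% of all tested genes passed in that direction. Nlrp4g, a further copy of the Nlrp4 group that was not among the chosen NLRP genes, was at the level of Nlrp4b. It had 103 ± 23.0 in the control and 90.4 ± 5.85 in the aminophylline group (adjusted p = 0.819, limma). The lower gene was Naip1, whose family members sense bacterial proteins and activate Nlrc4.

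Naip1 had an FPKM of 22.0, 15.9 and 28.0 in the controls and of 12.5, 10.6 and 11.9 under aminophylline. All control values lay above all aminophylline values. The log2 difference was -0.83 with an SE of 0.22, an unadjusted p-value of 0.00333 and an adjusted p-value of 0.651 in limma, so that it did not pass the adjustment over all genes. Like the NLRP genes, Naip1 has close copies, and the fragments it may share with them were not counted. Its adjusted p-value ranged from 0.0556, with the replicate number as a block, to 0.999, without aminophylline library 3. Of 10 inflammasome partners, 8 were in the table, 3 were tested and 0 passed. Txnip, which binds thioredoxin and NLRP3, had means of 113 ± 52.8 and 146 ± 48.4 (SD, n = 3 each, adjusted p = 0.749 in limma), and Casp8, an apoptotic and inflammatory protease, of 43.6 ± 13.1 and 36.3 ± 5.74 (adjusted p = 0.795 in limma). Pycard, the adaptor that joins NLRP proteins to caspase 1, had an FPKM of 2.73 in control library 1, the library with the high macrophage markers, and of at most 0.0189 in the others. Casp1 stayed under 1 in all 6 libraries.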

How the data were processed

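RNA was sequenced in 6 oocyte libraries, 3 per group, grouped by GEO's labels. The authors deposited FPKM values per gene, with symbols and NCBI gene numbers. Per the labels, the genome build was GRCm38 (mm10), and the aligner and the counting program are not given in the sources used here. The 10 genes and all other gene lists were chosen with earlier results of these data known.

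The fragments behind each FPKM value were recovered from the ratios between libraries. For the 22583 genes above 0 in at least 2 libraries, 100% of the values came out whole within 0.001 of a fragment. These fragments were used for depth, counting error and an alternative with voom. Depth was 14112341 to 33641283 fragments. The summed FPKM of a library ranged from 510206 to 587775 and was not rescaled in the main test.

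The groups were compared on log2(FPKM + 1) with the two-sided linear model of limma 3.58.1 (R 4.3.3), its variance moderated with a trend on mean expression. The 10340 genes tested reached an FPKM of 1 in 3 or more of the 6 libraries. Fold changes on this scale understate the change of low genes. Adjusted p-values are Benjamini-Hochberg values over all these genes. An exact permutation test over 3 against 3 libraries could not go below 0.1, so none was used between groups. Neighbours in the order of levels were compared by the exact sign-flip permutation test within libraries. The code was tested on simulated data.

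Both groups number their libraries 1 to 3. The deviations from the group means of same-numbered libraries had correlations across genes of 0.138, 0.140 and 0.552, so the replicate number was also used as a block. What the numbers share is not given in the sources used here.

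All 10 members and the 6 partners in the subcortical maternal complex are named with their values. Of each other list, the text names genes past an unadjusted p-value of 0.05 and the 2 with the highest mean FPKM, and the theca, stroma, erythrocyte and endothelial markers are given as sums only. The 5 genes most like the family were those with the highest correlation with the mean of the members. Lypla1 among them, and Nlrp3, Pycard, Casp1 and the markers at or near 0, were singled out after their values were seen. Positions and promoters are from RefSeq (GRCm38.p6), and transcript windows and coding identities from GENCODE on GRCm38, with Python 3.11.15, numpy 2.4.6, scipy 1.17.1 and Biopython 1.88. Plots were drawn with matplotlib 3.10.9. Alternatives were a pseudocount of 0.1, no filter, a mean FPKM of at least 5, median centring, a sum common to all libraries (TPM), quantile normalization, the replicate block, library weights, a linear model without moderation, voom on the recovered fragments, and leaving out each library in turn.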

Additional observations from a re-analysis of the deposited data

How the results depend on the processing

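No member passed an adjusted p-value of 0.05 in limma under any alternative, and the number past an unadjusted p-value of 0.05 was 0 under all of them but 1. Leaving out each library in turn gave 0 to 2, with Nlrp4b and Nlrp9a passing only without control library 2, where 15.6% of all tested genes passed. With the replicate number as a block, 0 members passed and no call on a member changed, while 47 of all tested genes passed the adjusted threshold against 0 without it. The number of neighbouring pairs in the order of levels that kept their order was 6 or 7 with each library left out, where 5 libraries cannot reach a p-value under 0.05.

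The direction of the smallest differences turned with the processing. The log2 difference of Nlrp4f was -0.0291 with a common sum, -0.0570 with quantile normalization, -0.0677 with median centring and -0.0926 with voom, and that of Nlrp4a was -0.0241 with voom. With library weights, Nlrp4c was at 0.0487, Nlrp9b at 0.0069 and Nlrp14 at 0.0163. With each library left out in turn, the difference ranged from -0.28 to 0.0827 for Nlrp2, from -0.15 to 0.27 for Nlrp4a, from -0.44 to 0.0878 for Nlrp4b, from -0.24 to 0.17 for Nlrp4c, from -0.29 to 0.29 for Nlrp4f, from -0.27 to 0.16 for Nlrp9b and from -0.16 to 0.13 for Nlrp14. The cause was not tested. Nlrp4e stayed positive (0.04 to 0.51) and Nlrp9a (-0.39 to -0.11) and Nlrp9c (-0.32 to -0.13) stayed negative under all 16 alternatives. Nlrp4c did not reach a mean FPKM of 5 and has no value under that filter.

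With 3 libraries a group, the intervals are set by the spread between libraries, which was larger in the control group for all 10 genes. Every value rested on at least 109 fragments. Nlrp4e had the largest share of sequence in common with other transcripts, and the effect of shared fragments on the values was not measured.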
